A study of Homo sapiens with 12 samples.

Results

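ETV1, ETV4 and ETV5 form the PEA3 group of ETS transcription factors, and their mRNAs were followed here in U251-APP cells lacking either of 2 CTCF binding sites. The members were taken by gene symbol, 3 of the 11178 genes in the table of normalized expression values, and each was listed once. They were picked because earlier results on these libraries had shown them far apart in the knockouts, so their own differences are given as a description, without a test. U251-APP is a derivative of U251, a human glioblastoma line, and every group compared carries its stably expressed mutant amyloid precursor protein (K670N/M671L). In CTCF-A KO cells the binding site called CTCF-A had been cut out with Cas9 guided to either side of it, in CTCF-B KO cells the site called CTCF-B had been removed in the same way, and WT cells kept both sites; the labels do not state that WT cells were cloned. Each group held 4 RNA-seq libraries. The edited cells came from single-cell clones, but the labels do not tell whether replicates are clones or cultures of 1 clone. The p-values below therefore reflect the scatter among these libraries, part or all of which may be technical.

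PEA3 factors bind GGA-containing DNA through a conserved ETS domain and act mostly as activators. They stand at the end of the receptor tyrosine kinase, RAS and ERK pathway: fibroblast and epidermal growth factor signals raise their transcription, ERK and its downstream kinases phosphorylate the proteins, the repressor Capicua holds their genes down until ERK releases it, and the COP1 ubiquitin ligase removes the proteins. In glioma and other tumours their mRNAs are used as readouts of ERK activity, and loss of Capicua in oligodendroglioma raises them. Only mRNA was measured here, so nothing below speaks of the proteins or of their phosphorylation. In bulk RNA, fewer cells that express a gene and less RNA per cell cannot be told apart.

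The number of reads per library is unknown. Replicates of a group differed by a median of 0.08 to 0.29 (log2) per gene in CTCF-A KO, 0.06 to 0.08 in CTCF-B KO and 0.05 to 0.08 in WT. The CTCF-A KO libraries also carried a trend with base composition. Relative to the WT mean, the 10% of genes richest in G and C stood above the 10% poorest by 0.96, 0.45, 0.66 and 0.06 in CTCF-A KO replicates 1 to 4, by -0.10 to 0.03 in CTCF-B KO and by -0.15 to 0.09 in WT. Differences from WT, and the levels of the members, were therefore also computed with a smooth trend in GC content and transcript length removed from each library, and with CTCF-A KO replicate 4 alone, which leaves 1 library in that group and assumes that it varies like those of the other groups. Of 10 astrocytic glioma markers 9 were measured, among them SOX2 and GFAP, and of 10 markers of other cell types only the keratin KRT18 was, so the markers do not go against the label. KRT18 averaged 8.67 ± 0.12 in CTCF-A KO, 8.54 ± 0.05 in CTCF-B KO and 8.94 ± 0.06 in WT (SD, n = 4 each). The astrocytic markers were not level between the groups: 0 passed the test as higher and 6 as lower in CTCF-A KO, and 0 as higher and 8 as lower in CTCF-B KO, against WT. Of all genes tested, 31.8% passed as higher and 31.1% as lower in CTCF-A KO, and 18.9% and 20.6% in CTCF-B KO. Whether the marker differences bear on the PEA3 genes was not tested.

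Close paralogs can exchange reads, so the coding sequences were compared first. Over the longest coding sequence of each gene (GENCODE 29, GRCh38), ETV1 and ETV4 were identical at 68.7% of aligned positions, ETV1 and ETV5 at 71.1%, and ETV4 and ETV5 at 71.2%. The longest stretches shared without a difference were 17, 18 and 33 bases, well short of the 150-base reads. The 90 bases below lie in the part of the ETS domain that touches DNA, where the 3 genes are most alike. They are shown because even there 19 positions, in capitals, are not the same in all 3 genes. Not every one of these positions separates each pair, and ETV4 and ETV5 share the base at some of them. They start at coding base 1165 of ETV1, 1141 of ETV4 and 1222 of ETV5 and read 5′ to 3′ on the coding strand.
ETV1: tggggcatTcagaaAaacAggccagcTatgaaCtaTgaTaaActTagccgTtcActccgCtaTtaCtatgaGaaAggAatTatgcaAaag
ETV4: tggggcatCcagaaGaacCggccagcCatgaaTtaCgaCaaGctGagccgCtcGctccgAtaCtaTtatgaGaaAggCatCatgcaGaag
ETV5: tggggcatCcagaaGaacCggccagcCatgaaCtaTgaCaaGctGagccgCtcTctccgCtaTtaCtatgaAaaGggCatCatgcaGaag

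All 3 mRNAs were lowest in CTCF-A KO, highest in CTCF-B KO and between them in WT, and in no member did a library of one group reach the range of another. ETV1 (ENSG00000006468, chr7:13891228-13991425, minus strand, GRCh38) had log2 normalized counts of 7.63, 8.16, 7.85 and 8.44 in the CTCF-A KO libraries, 9.88, 9.87, 9.93 and 10.06 in the CTCF-B KO libraries, and 8.84, 8.84, 8.97 and 8.93 in WT. The CTCF-A KO libraries were spread far wider than those of the other groups, yet the highest of them stayed 0.40 below the lowest WT library. Its mean was 8.02 ± 0.36 in CTCF-A KO, 9.94 ± 0.08 in CTCF-B KO and 8.90 ± 0.07 in WT (SD, n = 4 each). That placed CTCF-A KO at 0.545 of WT (log2 -0.88 ± 0.13, SE) and CTCF-B KO at 2.06 times WT (1.04 ± 0.13). The knockouts differed from each other by -1.92 ± 0.13, CTCF-A KO minus CTCF-B KO.

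ETV4 (ENSG00000175832, chr17:43527844-43579620, minus strand) showed the same order. It had 6.32, 6.39, 6.18 and 6.18 in the CTCF-A KO libraries, 7.77, 7.81, 7.56 and 7.68 in the CTCF-B KO libraries, and 7.12, 7.21, 7.18 and 7.21 in WT on the log2 scale. CTCF-A KO lay well clear of WT, by 0.73 between the nearest libraries, while CTCF-B KO lay above WT by 0.35. The means were 6.27 ± 0.10 in CTCF-A KO, 7.71 ± 0.11 in CTCF-B KO and 7.18 ± 0.04 in WT (SD, n = 4 each), which is 0.531 of WT in CTCF-A KO (-0.91 ± 0.07, SE) and 1.44 times WT in CTCF-B KO (0.53 ± 0.07). The knockouts differed by -1.44 ± 0.07.

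ETV5 (ENSG00000244405, chr3:186046308-186110318, minus strand) varied least among the CTCF-A KO libraries. It had 10.05, 10.03, 10.03 and 10.04 in the CTCF-A KO libraries, 11.44, 11.56, 11.43 and 11.33 in the CTCF-B KO libraries, and 10.32, 10.36, 10.39 and 10.37 in WT. Here the step was uneven: CTCF-A KO was a short way below WT, at 0.800 of it (-0.32 ± 0.05, SE), and CTCF-B KO was 2.11 times WT (1.08 ± 0.05). The knockouts differed by -1.40 ± 0.05.

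**Figure D1:**
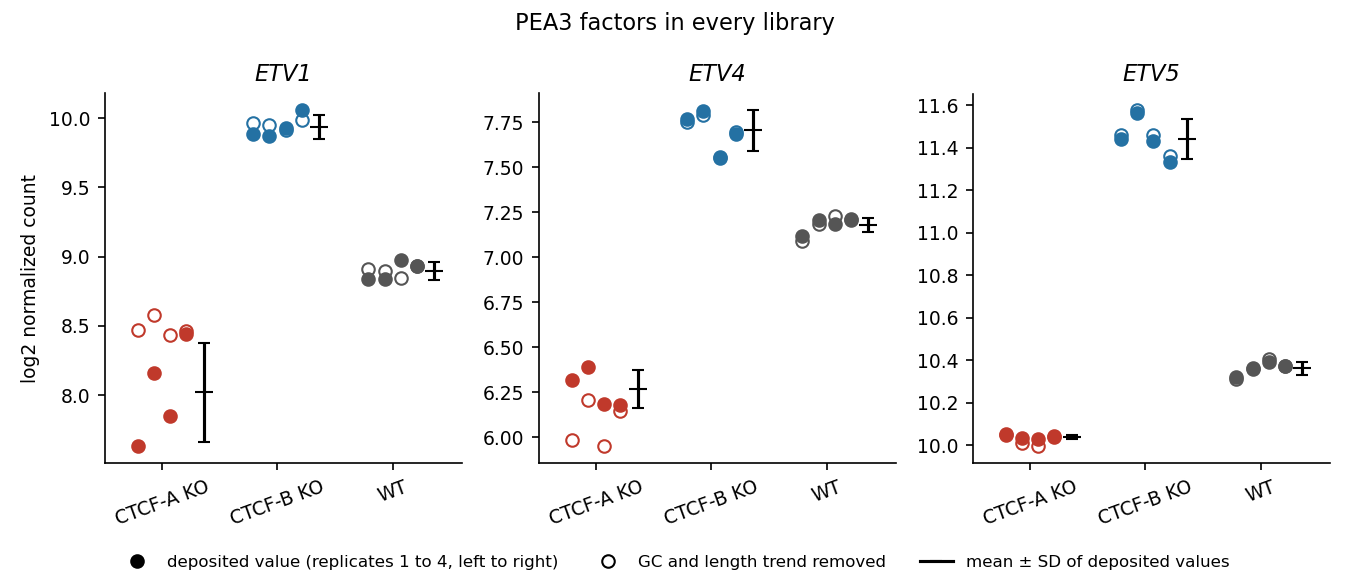
Log2 normalized counts of ETV1, ETV4 and ETV5 in each of the 12 libraries, by group (CTCF-A KO, CTCF-B KO, WT); filled points are deposited values, open points the values with the GC and length trend removed, and bars the mean ± SD of the deposited values. For each gene the CTCF-A KO points lie below and the CTCF-B KO points above the WT points, and the open points draw the scattered ETV1 values of CTCF-A KO together at 8.43 to 8.58.

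Across all genes, libraries in such an order were less common. The libraries did not overlap and lay lower in CTCF-A KO than in WT for 22.1% of the 11128 genes tested, and lay higher in CTCF-B KO than in WT for 26.2%. They lay lower in CTCF-A KO than in CTCF-B KO for 25.3%. The first 2 conditions held at once for 536 genes, or 4.82%. Between the knockouts, the size of the difference ranked 23 of 11128 for ETV1, 82 for ETV4 and 92 for ETV5. Genes with a larger absolute difference from WT made up 3.51% for ETV1, 3.11% for ETV4 and 37.9% for ETV5 in CTCF-A KO, so the ETV5 difference there was of a common size. In CTCF-B KO they made up 1.30% for ETV1, 6.90% for ETV4 and 1.18% for ETV5.

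The members differ in base composition, and so did the trend fitted at them. The GC content is 38.1% in the longest ETV1 transcript, 60.8% in that of ETV4 and 48.6% in that of ETV5. At ETV1 the fitted trend was -0.84, -0.42, -0.59 and -0.02 in CTCF-A KO replicates 1 to 4, and the deposited ETV1 values were lower in the libraries where the trend was larger. With the trend removed, ETV1 read 8.43 to 8.58 in CTCF-A KO, 9.92 to 9.99 in CTCF-B KO and 8.85 to 8.93 in WT. The ETV1 difference from WT in CTCF-A KO then shrank to -0.41, and with replicate 4 standing alone for CTCF-A KO it was -0.45, about as large. ETV4 moved the other way, to -1.11 with the trend removed and -0.999 with replicate 4 alone, while ETV5 stayed at -0.34 and -0.32. In CTCF-B KO the corrected differences were 1.06 for ETV1, 0.52 for ETV4 and 1.10 for ETV5, each within its SE of the uncorrected one. The groups of each member still did not overlap after the correction, with the nearest CTCF-A KO and WT libraries 0.27 apart for ETV1, 0.89 for ETV4 and 0.26 for ETV5.

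**Figure D2:**
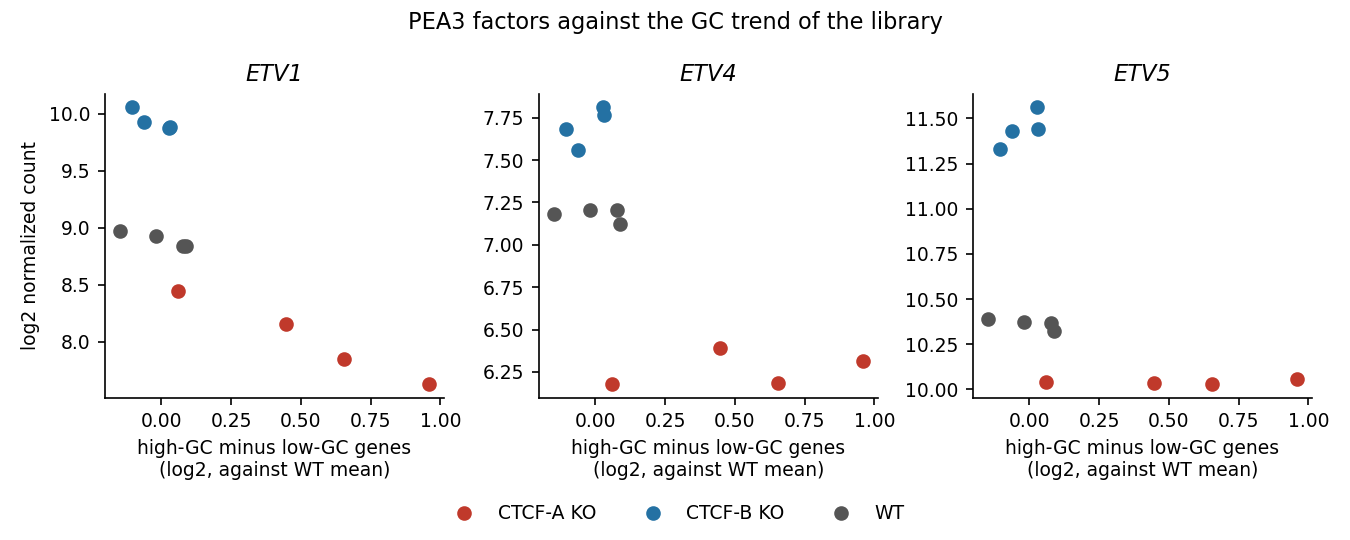
Log2 normalized count of each PEA3 factor (vertical axis) against the library's GC trend (horizontal axis: median deviation from the WT mean of the 10% of genes richest in G and C minus that of the 10% poorest, log2), coloured by group. Among the CTCF-A KO libraries ETV1 is lower where the trend is larger, from 8.44 at 0.06 to 7.63 at 0.96, while ETV5 stays at 10.03 to 10.05.

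The levels and shares below take the deposited values as plain log2 counts, which the sources used here do not state. They divide by the length of all annotated exons of a gene, whichever transcript the cells make. Per kilobase of exonic sequence, ETV5 made up most of the PEA3 mRNA in every group. Its normalized count per kb averaged 182 ± 1.34 in CTCF-A KO, 480 ± 31.6 in CTCF-B KO and 227 ± 4.65 in WT (SD, n = 4 each). ETV1 followed with 27.6 ± 6.84 in CTCF-A KO, 102 ± 6.12 in CTCF-B KO and 49.6 ± 2.33 in WT. ETV4 had 21.4 ± 1.54 in CTCF-A KO, 58.0 ± 4.42 in CTCF-B KO and 40.2 ± 1.12 in WT. ETV1 and ETV4 overlapped in CTCF-A KO, at 20.6 to 36.2 and 20.1 to 23.3, so their order there is not resolved in the deposited values, whereas in CTCF-B KO and WT every ETV1 value exceeded every ETV4 value. With the trend removed they did not overlap in CTCF-A KO either, at 35.9 to 39.7 for ETV1 and 17.1 to 20.5 for ETV4. The sum of the 3 was 231 ± 6.43 in CTCF-A KO, 640 ± 29.2 in CTCF-B KO and 317 ± 7.48 in WT. It was 235 ± 4.25 in CTCF-A KO, 648 ± 31.0 in CTCF-B KO and 317 ± 7.03 in WT with the trend removed, and 238 in CTCF-A KO replicate 4.

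The mix of the 3 mRNAs differed as well as their sum. ETV5 held 78.8% of the summed level in CTCF-A KO, 74.9% in CTCF-B KO and 71.7% in WT, and its range in each knockout (76.4 to 81.1% and 72.6 to 76.5%) lay above that in WT (71.4 to 72.0%). ETV4 held 9.29%, 9.06% and 12.7% in CTCF-A KO, CTCF-B KO and WT, so its share was lower in both knockouts than in WT although its level was lower than WT in CTCF-A KO and higher in CTCF-B KO. The share of ETV1 was 11.9% in CTCF-A KO, 16.0% in CTCF-B KO and 15.6% in WT. The lower ETV1 share in CTCF-A KO was seen in the deposited values only: it was 15.8% with the trend removed, against 15.7% in WT, and 15.2% in CTCF-A KO replicate 4. With the trend removed the share of ETV4 was 7.93% in CTCF-A KO, 8.89% in CTCF-B KO and 12.7% in WT, and that of ETV5 was 76.2%, 75.2% and 71.7%. The log2 gap between ETV5 and ETV4 was 3.77 ± 0.10 in CTCF-A KO, 3.74 ± 0.10 in CTCF-B KO and 3.18 ± 0.02 in WT (SD, n = 4 each). Across the 12 libraries, which fall into 3 separate groups, Pearson's r was 0.94 for ETV1 with ETV4, 0.94 for ETV1 with ETV5 and 0.89 for ETV4 with ETV5. Since the group levels alone give such values, r is a description of these libraries only.

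The other genes used with ETV4 and ETV5 as readouts of ERK activity in tumours were examined next. All 8 were measured, and 4 of them passed the test as lower in CTCF-A KO and higher in CTCF-B KO, against 3.66% of all genes. In CTCF-A KO 1 rose and 6 fell against WT, where 62.9% of all genes tested passed (31.8% higher and 31.1% lower); the list's median difference was -0.45 and that of all genes 0.00485. In CTCF-B KO 5 rose and 2 fell, where 39.4% of all genes passed (18.9% higher and 20.6% lower), with a median of 0.44 against 0.00164 for all genes. Between the knockouts 1 was higher and 6 were lower in CTCF-A KO, where 66.0% of all genes passed (33.4% higher and 32.6% lower). Removing the GC and length trend left these counts as they were, but between the knockouts EPHA2 turned to -0.10, PHLDA1 was 0.07 and no longer passed, and EPHA4 passed as higher (0.37, adjusted p 0.000786). For each list described here with a count of 0, the count at an unadjusted p under 0.05 in the same limma fit was 0 as well.

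DUSP6, a cytoplasmic phosphatase that switches off ERK and is induced by it, was among the genes whose pattern was most like that of ETV5. It had 5.73, 5.99, 5.81 and 6.01 in the CTCF-A KO libraries, 7.42, 7.66, 7.49 and 7.47 in the CTCF-B KO libraries, and 6.33, 6.18, 6.47 and 6.37 in WT on the log2 scale. The 3 groups did not overlap. Its difference from WT was -0.45 ± 0.09 (SE, adjusted p 0.000698) in CTCF-A KO and 1.17 ± 0.09 (adjusted p 3.37e-07) in CTCF-B KO. DUSP4, its nuclear relative, had 8.22, 8.41, 8.16 and 8.29 in the CTCF-A KO libraries, 9.91, 10.00, 9.91 and 9.78 in the CTCF-B KO libraries, and 9.05, 8.91, 8.90 and 8.99 in WT. That was a fall by 0.69 in CTCF-A KO (adjusted p 2.11e-06) and a rise by 0.94 in CTCF-B KO (adjusted p 1.74e-07).

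The Sprouty genes, feedback inhibitors of receptor tyrosine kinase signalling, also fell in CTCF-A KO and rose in CTCF-B KO. SPRY4 fell by 0.45 in CTCF-A KO (adjusted p 3.08e-05) and rose by 0.57 in CTCF-B KO (adjusted p 6.97e-06). SPRY2 fell by 0.54 in CTCF-A KO (adjusted p 2.73e-05) and rose by 0.31 in CTCF-B KO (adjusted p 0.0035). The other 4 readout genes did not follow that order. CCND1, the cyclin D1 gene, fell by 1.36 in CTCF-A KO (adjusted p 3.51e-08) and differed by -0.15 from WT in CTCF-B KO (adjusted p 0.154). PHLDA1, a pleckstrin-like protein induced by growth factors, rose in both knockouts, by 0.52 and 0.66 (adjusted p 4.79e-07 and 5.98e-08), and by 0.82 in CTCF-A KO with the trend removed.

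The ephrin receptor gene EPHA2 fell by 0.20 in CTCF-A KO (adjusted p 0.00488), or by 0.37 with the trend removed, and by 0.33 in CTCF-B KO (adjusted p 0.000248). EPHA4, of the same receptor family, differed by -0.11 in CTCF-A KO (adjusted p 0.373) and by -0.31 in CTCF-B KO (adjusted p 0.0346). The EPHA4 call in CTCF-B KO ended without CTCF-B KO replicate 1, 3 or 4 or WT replicate 1, 2 or 4 (-0.30 to -0.28, adjusted p 0.0753 to 0.0880).

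**Figure D3:**
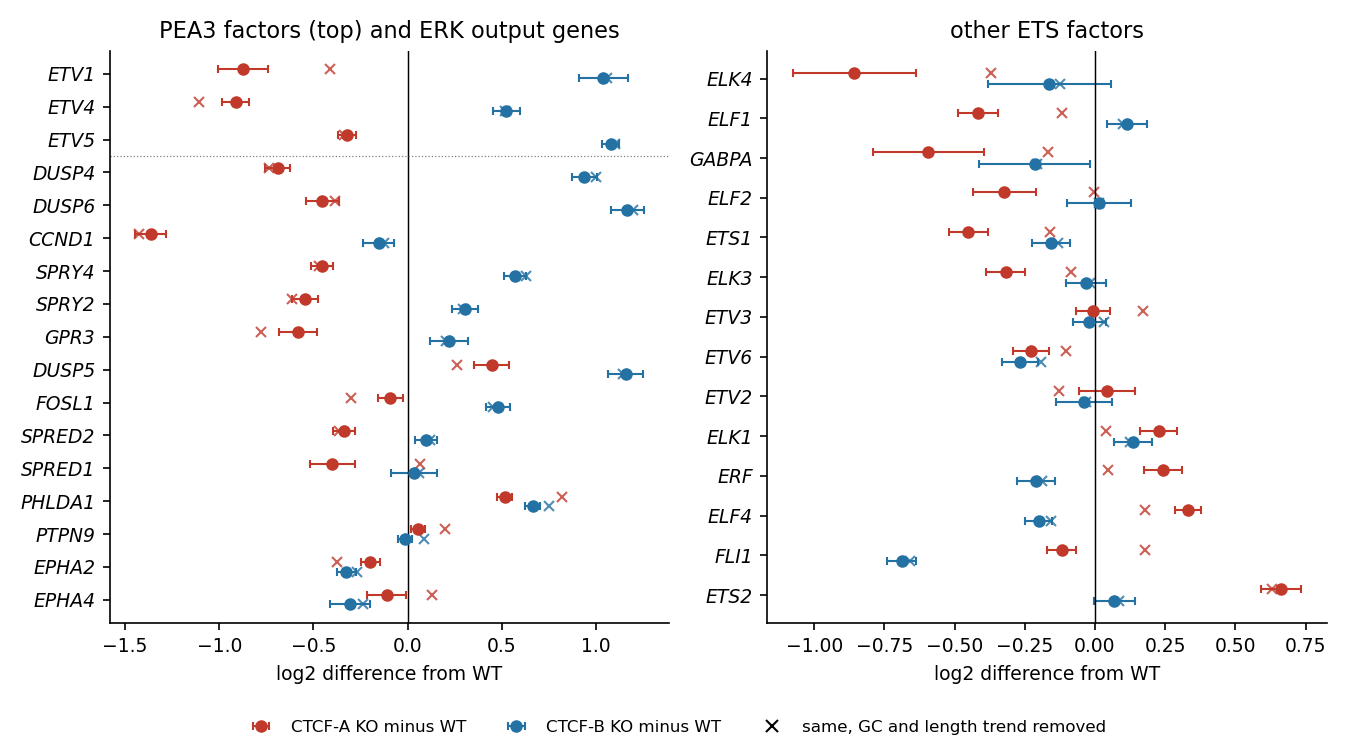
Difference from WT (log2, horizontal axis) of the PEA3 factors and of ERK readout genes and described Capicua targets (left), and of the other measured ETS factors (right), for CTCF-A KO and CTCF-B KO; bars are the SE of the common model of 12 libraries, and crosses the same differences with the GC and length trend removed. DUSP4, DUSP6, SPRY4 and SPRY2 lie left of 0 in CTCF-A KO and right of 0 in CTCF-B KO like the PEA3 factors. As deposited, 3.66% of all genes and none of the other ETS factors passed as lower in CTCF-A KO and higher in CTCF-B KO. With the trend removed, 7.10% of all genes did, and ELF1 of the 14 other ETS factors.

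Genes described as bound and repressed by Capicua overlap that list. Of 13 listed, 11 were measured, SHC3 and CCND2 not being among the genes tested. The mean lay below WT in CTCF-A KO and above it in CTCF-B KO for 8 of the 11, or 7 with the trend removed. Among all 11128 genes it did for 2515 (22.6%), or 2678 with the trend removed. In both comparisons 4 passed the test, against 3.66% of all genes. These were DUSP4, DUSP6, SPRY2 and SPRY4, already counted among the readout genes. In CTCF-A KO 1 rose and 8 fell (median -0.45), against 31.8% and 31.1% of all genes. In CTCF-B KO 6 rose and 0 fell (median 0.31), against 18.9% and 20.6% of all genes. Between the knockouts 0 were higher and 10 were lower in CTCF-A KO, against 33.4% and 32.6% of all genes. With the trend removed 1 was higher and 9 were lower. SPRED2, a membrane-bound inhibitor of RAS to RAF signalling, fell by 0.34 in CTCF-A KO (adjusted p 0.000275), or by 0.22 with replicate 4 alone, and differed by 0.10 in CTCF-B KO (adjusted p 0.202). GPR3, a constitutively active receptor that raises cyclic AMP, fell by 0.58 in CTCF-A KO (adjusted p 0.000289). FOSL1, the AP-1 subunit FRA1, differed by -0.09 in CTCF-A KO (adjusted p 0.234), or by -0.30 with the trend removed (adjusted p 0.00146), and rose by 0.48 in CTCF-B KO (adjusted p 7.46e-05). The 3 genes out of that order were CCND1, described above, DUSP5 and PTPN9. DUSP5, a nuclear ERK phosphatase, rose in both knockouts, by 0.45 in CTCF-A KO (adjusted p 0.00114; 0.26 with the trend removed) and by 1.16 in CTCF-B KO (adjusted p 6.35e-07). PTPN9, a tyrosine phosphatase named here after its values were seen, differed by 0.06 in CTCF-A KO (adjusted p 0.190) and by -0.01 in CTCF-B KO (adjusted p 0.792), and by 0.20 in CTCF-A KO with the trend removed (adjusted p 0.00151). SPRED1 fell by 0.40 in CTCF-A KO (adjusted p 0.0119), which was 0.07 with the trend removed (adjusted p 0.113).

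Capicua recognizes the octamers TGAATGAA, TGAATGGA, TCAATGAA and TCAATGGA, and these were looked for on both strands in the 300-base windows that RefSeq starts define (GRCh38.p14). Any of the 4 occurred in 3.77% of 35116 windows and in 4.62% of the 27305 genes that have one. Of the 19 members, readout genes and Capicua genes, 12 were searched, and ETV4, ETV5, CCND1, CCND2, DUSP4, DUSP5 and FOSL1 were not. An octamer occurred in 4 of the 12: ETV1 and DUSP6, which had the order of groups described above, and EPHA2 and PTPN9, which did not. None occurred in the windows of SPRY2, SPRY4, SPRED1, SPRED2 and GPR3, whose means had that order, nor in those of EPHA4, PHLDA1 and SHC3. ETV1 has 6 such windows, 1 of which holds TGAATGGA, 125 bases before the start, and none holds the ETS motif CCGGAAGT, which 4.14% of all windows have. DUSP6 holds TCAATGGA at 2 places, on the opposite strand, where it reads TCCATTGA. The windows of ETV1, the member with a match, and DUSP6, the gene with 2 matches, are shown; capitals mark the octamers. They are chr7:13991376-13991675 for ETV1 and chr12:89352452-89352751 for DUSP6, both on the minus strand. A match is a stretch of letters and not evidence of binding in these cells.
ETV1: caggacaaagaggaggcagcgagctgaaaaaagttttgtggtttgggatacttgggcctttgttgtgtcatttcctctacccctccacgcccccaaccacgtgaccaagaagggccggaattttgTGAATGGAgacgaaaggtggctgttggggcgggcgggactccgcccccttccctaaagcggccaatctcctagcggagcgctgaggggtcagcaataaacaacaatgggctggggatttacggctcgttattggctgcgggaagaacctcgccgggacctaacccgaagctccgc
DUSP6: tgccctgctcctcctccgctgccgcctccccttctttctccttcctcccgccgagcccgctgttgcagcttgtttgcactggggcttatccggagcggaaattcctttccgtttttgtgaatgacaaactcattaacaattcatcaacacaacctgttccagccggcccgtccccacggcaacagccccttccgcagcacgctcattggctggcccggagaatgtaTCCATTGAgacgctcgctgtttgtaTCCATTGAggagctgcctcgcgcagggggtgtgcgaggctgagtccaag

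The mRNA of Capicua itself had small differences. CIC had 11.91, 11.72, 11.84 and 11.75 in the CTCF-A KO libraries, 11.27, 11.38, 11.36 and 11.26 in the CTCF-B KO libraries, and 11.61, 11.59, 11.48 and 11.51 in WT on the log2 scale, so it was highest in CTCF-A KO and lowest in CTCF-B KO without overlap. It rose by 0.26 ± 0.05 in CTCF-A KO (SE, adjusted p 0.000951) and fell by 0.23 ± 0.05 in CTCF-B KO (adjusted p 0.0032). With the GC and length trend removed the differences were 0.00665 for CTCF-A KO and 0.00904 for CTCF-B KO (adjusted p 0.861 and 0.817), so these calls depend on that choice. With replicate 4 standing alone for CTCF-A KO, CIC differed by 0.20 from WT. ATXN1L, a partner that stabilizes Capicua, fell by 0.21 in CTCF-A KO (adjusted p 0.000295) and by 0.16 in CTCF-B KO (adjusted p 0.00357), or by 0.07 there with the trend removed. Its homologue ATXN1 differed by -0.23 in CTCF-A KO (adjusted p 0.035), which was 0.0063 with the trend removed, and the call ended without CTCF-A KO replicate 1, 2 or 3 or WT replicate 1, 2 or 3 (adjusted p 0.0621 to 0.0945). In CTCF-B KO ATXN1 differed by 0.11 (adjusted p 0.341), or by 0.24 with the trend removed (adjusted p 7.42e-05).

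Parts of the COP1 ligase, which marks PEA3 proteins for degradation, were lower more often than higher in CTCF-B KO. Of 9 listed 7 were measured. In CTCF-A KO 2 rose and 4 fell, against 31.8% and 31.1% of all genes. In CTCF-B KO 1 rose and 5 fell, against 18.9% and 20.6% of all genes. TRIB2, a pseudokinase of a family of COP1 adaptors, fell by 0.52 in CTCF-A KO (adjusted p 7.17e-06) and by 0.37 in CTCF-B KO (adjusted p 0.00025). CUL4B, a scaffold of the ligase, fell by 0.65 in CTCF-A KO (adjusted p 0.00553) and by 0.88 in CTCF-B KO (adjusted p 0.00119); its CTCF-A KO difference was -0.25 with the trend removed and -0.05 with replicate 4 alone. COP1 itself fell by 0.26 in CTCF-B KO (adjusted p 0.00156) and differed by -0.14 in CTCF-A KO (adjusted p 0.0304), a call that ended without CTCF-A KO replicate 1, 2 or 3 or WT replicate 3 or 4 (adjusted p 0.0528 to 0.0976) and was -0.22 with the trend removed. DDB1, the adaptor that joins COP1 to the scaffold, fell by 0.22 in CTCF-B KO (adjusted p 0.00298). Its CTCF-A KO difference was -0.10 (adjusted p 0.0825), -0.22 with the trend removed (adjusted p 8.62e-06) and -0.25 with replicate 4 alone. DDA1, a small subunit, rose by 0.37 in CTCF-A KO (adjusted p 8.31e-05), or by 0.20 with the trend removed. RBX1, the RING subunit, rose by 0.33 in CTCF-A KO (adjusted p 0.0021), which was 0.05 with replicate 4 alone. In CTCF-B KO RBX1 differed by -0.21 (adjusted p 0.0441) and DDA1 by 0.16 (adjusted p 0.0368). Leaving out any 1 of 9 libraries ended that RBX1 call (adjusted p 0.0570 to 0.103). Any 1 of 8 ended that DDA1 call (adjusted p 0.0514 to 0.0995). CUL4A, the paralog of CUL4B, differed by -0.14 in CTCF-A KO (adjusted p 0.0282) and by 0.19 with the trend removed, and the call ended without CTCF-A KO replicate 1, 2 or 3 or WT replicate 3 or 4 (adjusted p 0.0506 to 0.0760).

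Of 8 genes for kinases and cofactors that act on PEA3 proteins, 7 were measured. In CTCF-A KO 3 rose and 3 fell, against 31.8% and 31.1% of all genes. In CTCF-B KO 0 rose and 2 fell, against 18.9% and 20.6% of all genes, while 3 rose and 3 fell there with the trend removed. That removal also took the number of all genes passing as higher in CTCF-B KO from 2100 to 3220. RPS6KA1, the ERK-activated kinase RSK1, rose by 0.36 in CTCF-A KO (adjusted p 0.000158), or by 0.18 with the trend removed, and fell by 0.31 in CTCF-B KO (adjusted p 0.000802). RPS6KA4, the kinase MSK2, fell by 0.26 in CTCF-A KO (adjusted p 0.00251), or by 0.46 with the trend removed, and by 0.43 in CTCF-B KO (adjusted p 9.55e-05). CREBBP, the acetyltransferase CBP, rose by 0.30 in CTCF-A KO (adjusted p 7.06e-05), or by 0.14 with the trend removed, and MED25, the Mediator subunit that PEA3 factors contact, rose by 0.23 (adjusted p 0.00399) but by 0.05 with the trend removed (adjusted p 0.246).

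Genes of the fibroblast growth factor pathway, among them ligands, receptors and inhibitors, were lower or did not pass the test in most cases. Of 21 listed 10 were measured. In CTCF-A KO 0 rose and 5 fell (median -0.38), against 31.8% and 31.1% of all genes, and in CTCF-B KO 1 rose and 5 fell (median -0.14), against 18.9% and 20.6%. After trend removal 2 rose and 5 fell in CTCF-A KO, the risen ones being FGF13 at 0.48 and FGF12 at 0.33, both intracellular members of the family; FGF12 is named here after its values were seen. The receptor genes did not all move alike. FGFR1 differed by 0.09 in CTCF-A KO (adjusted p 0.0826), or by 0.06 with the trend removed. In CTCF-B KO it fell by 0.18 (adjusted p 0.00361). FGFR3 and FGFRL1 fell in both knockouts. FGFR3 fell by 1.01 in CTCF-A KO (adjusted p 1.84e-06) and by 0.64 in CTCF-B KO (adjusted p 0.000165), and FGFRL1, which lacks the kinase domain, by 0.75 and 0.43 (adjusted p 2.26e-07 and 5.81e-05). FGF2, the ligand basic FGF, fell by 0.94 in CTCF-A KO (adjusted p 4.01e-05), or by 0.46 with the trend removed. In CTCF-B KO it differed by -0.39 (adjusted p 0.0243), a call that ended without CTCF-B KO replicate 1 or 2 or WT replicate 3 (-0.39 to -0.36, adjusted p 0.0555 to 0.0679). IL17RD, the feedback inhibitor SEF, fell by 1.23 in CTCF-A KO (adjusted p 1.75e-06) and differed by -0.10 in CTCF-B KO (adjusted p 0.524). SPRED3 alone rose in CTCF-B KO, by 0.81 (adjusted p 5.2e-07), and differed by -0.11 in CTCF-A KO (adjusted p 0.134), or by -0.28 with the trend removed (adjusted p 0.00159).

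In the RAS, RAF, MEK and ERK cascade 21 of 22 listed genes were measured. In CTCF-A KO 7 rose and 12 fell (median -0.41), against 31.8% and 31.1% of all genes, and 4 rose and 12 fell with the trend removed. Several of these differences shrank with the trend removed: BRAF differed by -0.41 (adjusted p 0.00701) and by 0.05 with the trend removed, and SOS1, an exchange factor that loads RAS with GTP, by -0.61 (adjusted p 0.00352) and by -0.12. In CTCF-B KO 3 rose and 4 fell (median 0.08), against 18.9% and 20.6% of all genes, and 9 rose and 4 fell with the trend removed. Removing the trend also took the number of all genes passing as higher in CTCF-B KO from 2100 to 3220. KSR1, the scaffold that brings RAF, MEK and ERK together, had the order of the PEA3 factors, falling by 0.45 in CTCF-A KO (adjusted p 2.11e-05) and rising by 0.30 in CTCF-B KO (adjusted p 0.000814). MRAS, a RAS relative that forms a phosphatase complex activating RAF, fell by 0.66 in CTCF-A KO (adjusted p 4.88e-06) and by 0.26 in CTCF-B KO (adjusted p 0.00828). SHC1, an adaptor of receptor tyrosine kinases, rose by 0.41 in CTCF-A KO (adjusted p 2.4e-05), or by 0.24 with the trend removed, and fell by 0.21 in CTCF-B KO (adjusted p 0.00564).

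**Figure D4:**
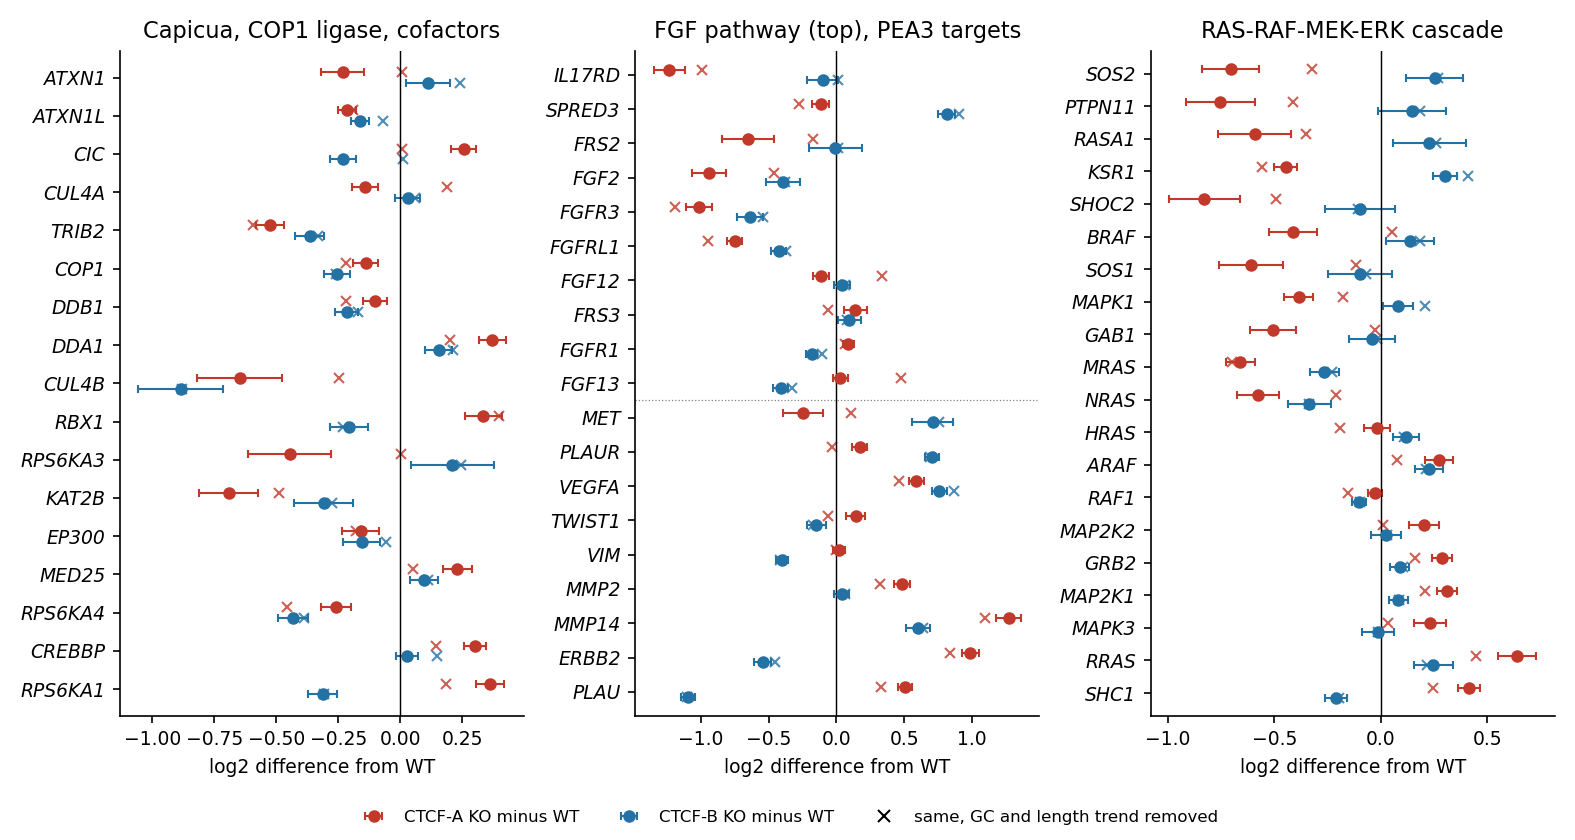
Difference from WT (log2, horizontal axis) of measured genes for Capicua, the COP1 ligase and cofactors (left), the FGF pathway and described PEA3 targets (middle) and the RAS to ERK cascade (right), for CTCF-A KO and CTCF-B KO; bars are the SE of the common model of 12 libraries, and crosses the same differences with the GC and length trend removed. IL17RD, FGFR3 and FGF2 lie far to the left in CTCF-A KO, while MMP14 and ERBB2 lie to the right, and many cascade genes move toward 0 once the trend is removed.

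Genes described in other systems as regulated by PEA3 factors were examined as well. Of 20 listed 9 were measured. The mean lay below WT in CTCF-A KO and above it in CTCF-B KO for 1 of the 9, against 22.6% of all genes. Most of all genes tested lacked that order too. In CTCF-A KO, where the PEA3 mRNAs were lowest, 6 rose and 0 fell (median 0.48), against 31.8% and 31.1% of all genes. With the trend removed 5 rose and 0 fell there, and VIM turned to -0.12 with replicate 4 alone. In CTCF-B KO 4 rose and 3 fell (median 0.04), against 18.9% and 20.6% of all genes. PLAUR rose by 0.71 in CTCF-B KO (adjusted p 4.57e-07) and by 0.17 in CTCF-A KO (adjusted p 0.0149). Its CTCF-A KO difference was -0.03 with the trend removed (adjusted p 0.504). Between the knockouts PLAUR was lower in CTCF-A KO, by 0.53 (adjusted p 2.67e-06). MMP14, a membrane-bound matrix protease, rose by 1.27 in CTCF-A KO (adjusted p 1.65e-07) and by 0.60 in CTCF-B KO (adjusted p 0.000183). PLAU, the urokinase protease, rose by 0.51 in CTCF-A KO (adjusted p 4.86e-06), or by 0.33 with the trend removed, and fell by 1.09 in CTCF-B KO (adjusted p 6.06e-09), the reverse of the PEA3 order. ERBB2, a receptor of the epidermal growth factor family, likewise rose by 0.99 in CTCF-A KO (adjusted p 4.58e-08) and fell by 0.54 in CTCF-B KO (adjusted p 1.54e-05). MET, the hepatocyte growth factor receptor, differed by -0.24 in CTCF-A KO (adjusted p 0.167) and rose by 0.71 in CTCF-B KO (adjusted p 0.00208). Its CTCF-A KO difference turned to 0.11 with the trend removed (adjusted p 0.164) and to 0.30 with replicate 4 alone. VEGFA, the vascular growth factor, rose in both knockouts, by 0.59 and 0.76 (adjusted p 2.2e-06 and 3.1e-07).

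Among the other ETS factors, 14 of 25 were measured. In CTCF-A KO 4 rose and 7 fell (median -0.17), and 4 rose and 4 fell with the trend removed. In CTCF-B KO 0 rose and 4 fell (median -0.10), and 2 rose and 5 fell with the trend removed. The shares among all genes as deposited were 31.8% higher and 31.1% lower in CTCF-A KO, and 18.9% higher and 20.6% lower in CTCF-B KO. With the trend removed, the number of all genes passing as higher in CTCF-B KO went from 2100 to 3220. ELF1 had the order of the PEA3 factors in its means: it fell by 0.42 in CTCF-A KO (adjusted p 0.000264) and differed by 0.11 in CTCF-B KO (adjusted p 0.222). It passed in both once the trend was removed, at -0.12 in CTCF-A KO (adjusted p 0.00636) and 0.10 in CTCF-B KO (adjusted p 0.0172). Of all genes, 3.66% passed in both in that order as deposited, and 7.10% with the trend removed. ETS2, itself a target of ERK phosphorylation, rose by 0.66 in CTCF-A KO (adjusted p 7.66e-06) and differed by 0.07 in CTCF-B KO (adjusted p 0.492). FLI1 fell by 0.69 in CTCF-B KO (adjusted p 3.87e-07) and differed by -0.12 in CTCF-A KO (adjusted p 0.0643), or by 0.18 with the trend removed (adjusted p 0.0471). ETS1 fell by 0.45 in CTCF-A KO (adjusted p 0.000118), or by 0.16 with the trend removed. ELF4 rose by 0.33 in CTCF-A KO (adjusted p 7.29e-05), or by 0.18 with the trend removed, and fell by 0.20 in CTCF-B KO (adjusted p 0.00469). ERF, a repressor that ERK exports from the nucleus, rose by 0.24 in CTCF-A KO (adjusted p 0.00737), which was 0.05 with the trend removed (adjusted p 0.203).

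Among 2485 genes that varied over the 12 libraries by an SD of at least 0.3, patterns very like that of ETV1 were those of RPF2, ENTPD4, SETD7, XPOT and TCEA1 (Pearson's r 0.986 to 0.992). RPF2, a factor of ribosome assembly, averaged 9.22 ± 0.18 in CTCF-A KO, 9.94 ± 0.04 in CTCF-B KO and 9.60 ± 0.04 in WT (SD, n = 4 each). Those most like ETV4 were MACROD1, BAG3, MAP1LC3B, GPR1, LDHA and KSR1 (0.986 to 0.993). Those most like ETV5 were LINC02693, GARS1, CXCL8, STX1A, DUSP6 and EMP1 (0.986 to 0.997). CXCL8, the chemokine interleukin 8, followed the ETV5 pattern over a wider range, with 8.82 ± 0.26 in CTCF-A KO, 12.17 ± 0.32 in CTCF-B KO and 9.65 ± 0.09 in WT. With the trend removed, EMP1 ranked 150 for likeness to ETV5, and LDHA ranked 75 for ETV4. The 12 libraries fall into 3 groups, and 3 of the CTCF-A KO libraries carry the GC trend, so likeness over them is a description only.

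The members lie on chromosomes 7, 17 and 3, and the genes around them are given for comparison. Within 2 Mb of the ETV1 start 2 other genes were measured, of which TMEM106B, a lysosomal membrane protein, differed by -0.44 in CTCF-A KO (adjusted p 0.0118), which was 0.003 with the trend removed. Near ETV4, 87 genes were measured. Of these, 68 rose and 3 fell in CTCF-A KO (median 0.40), or 59 and 7 with the trend removed (median 0.24), while ETV4 lay at -0.91. The risen ones were 78.2% of the neighbours, against 31.8% of all genes. In CTCF-B KO 29 rose and 11 fell (median 0.07), or 33.3% and 12.6%, against 18.9% and 20.6% of all genes. FMNL1, a formin, rose by 1.24 in CTCF-A KO (adjusted p 9.27e-09), and GFAP, the astrocyte filament gene, differed by -3.11 in CTCF-A KO (adjusted p 6.62e-12) and by -2.85 in CTCF-B KO (adjusted p 4.34e-11). STAT5A, a cytokine-activated transcription factor, fell by 1.06 in CTCF-B KO, and MPP2, a scaffold of the membrane-associated guanylate kinase family, fell by 0.90.

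Near ETV5, 31 genes were measured. In CTCF-A KO 11 rose and 6 fell, or 35.5% and 19.4%, against 31.8% and 31.1% of all genes. In CTCF-B KO 2 rose and 8 fell (median -0.05), or 6.45% and 25.8%, against 18.9% and 20.6% of all genes. With the trend removed 7 rose and 7 fell there, and the number of all genes passing as higher went from 2100 to 3220. ETV5 itself lay at 1.08 in CTCF-B KO. DGKG, a diacylglycerol kinase, rose by 0.94 in CTCF-A KO (adjusted p 5.16e-07) and by 0.87 in CTCF-B KO. IGF2BP2, an RNA-binding protein, fell by 0.51 in CTCF-A KO (adjusted p 5.31e-07) and differed by 0.04 in CTCF-B KO. DGKG shares 164 bases of exon with ETV5 on the same strand, 2.83% of the exonic length of ETV5, and DHX8 shares 68 bases with ETV4 on the opposite strand, 1.89%. How the counting treated reads in shared bases is not given in the sources used here. DHX8, a splicing helicase, rose by 0.43 in CTCF-A KO (adjusted p 8.07e-07) and differed by 0.03 in CTCF-B KO (adjusted p 0.551).

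**Figure D5:**
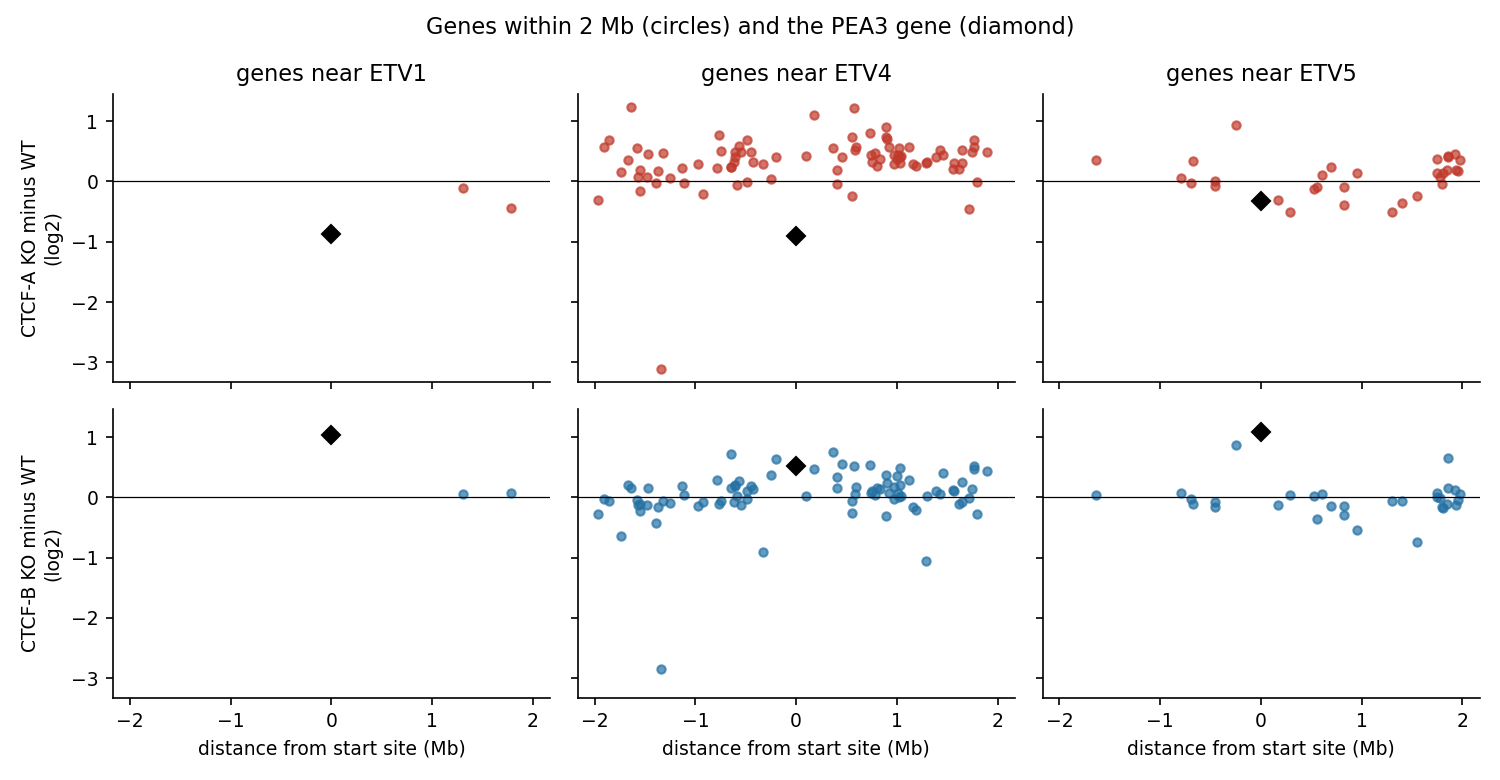
Difference from WT (log2, vertical axis) of the genes whose start lies within 2 Mb of ETV1, ETV4 or ETV5 (circles) and of the PEA3 gene itself (diamond at 0), against distance from its start in Mb, for CTCF-A KO (top) and CTCF-B KO (bottom). ETV4 lies below all of its 87 neighbours but GFAP in CTCF-A KO, and ETV5 lies above its 31 neighbours in CTCF-B KO.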

How the data were processed

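RNA from 12 U251-APP cultures was sequenced as 150-base read pairs, 4 libraries per group. The deposited table holds log2 normalized values for 11178 genes, made by the authors with Trimmomatic 0.33, featureCounts and DESeq2 on GRCh38.p7, per the submitters' processing notes; the aligner, annotation, strand setting and the log2 transformation are not given in the sources used here. Depth is unknown, so no counting interval is given. Genes with a linear value of at least 10 in at least 4 libraries were kept (11128). A model of 3 group means was fitted to all genes with limma 3.58.1 in R 4.3.3 (trended variance) giving two-sided p-values per contrast; a gene was called at a Benjamini-Hochberg adjusted p under 0.05; adjusted p-values are from that fit, and the SE is that of its contrast. The procedure was tested on simulated data. The GC and length trend per library used natural splines with 5 and 4 degrees of freedom. Annotation was GENCODE 29, where 11151 identifiers matched. The members and lists were chosen with earlier results of these data known. Named genes were the members, all measured ERK readout, Capicua and COP1 ligase genes, the up to 4 lowest adjusted p per comparison in the other lists, the 6 most similar to each member, and the 2 neighbours with the largest difference per comparison; not all are described, and some are not reported here.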

Additional observations from a re-analysis of the deposited data

Results flagged for a closer look

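Among the values of the named genes, 255 groups of 4 libraries were examined and 13 held a library set apart from the other 3. Chance alone gives about 1 in 20 groups, so the number flagged was about that rate. None belonged to ETV1, ETV4 or ETV5. In CTCF-A KO replicate 4 was the library apart for PLAUR (10.35, others 10.54 to 10.57), FABP7 (9.14, others 9.46 to 9.50), BAG3 (10.71, others 10.88) and STX1A (9.02, others 9.17 to 9.20), all low; this is also the CTCF-A KO library with the smallest GC trend. In CTCF-B KO replicate 2 was high for EPHA4 (7, others 6.84 to 6.86), PLAUR (11.14, others 10.99 to 11.01), LINC02693 (9.86, others 9.69 to 9.72) and FMNL1 (8.44, others 8.32 to 8.34) and low for MPP2 (7.25, others 7.36), and replicate 4 was low for TRIB2 (10.15, others 10.26 to 10.28). In WT replicate 3 was low for FGFR3 (8.76, others 8.97 to 8.99) and KRT18 (8.86, others 8.96 to 8.98), and replicate 2 was low for CXCL8 (9.51, others 9.68 to 9.70). All values are log2 normalized counts. What set these libraries apart was not tested.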

How the results depend on the processing

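The 9 differences of ETV1, ETV4 and ETV5 kept their sign under all 21 alternatives. Leaving out 1 library at a time gave -1.02 to -0.75 for ETV1, -0.95 to -0.88 for ETV4 and -0.34 to -0.31 for ETV5 in CTCF-A KO, and 1.00 to 1.07, 0.49 to 0.58 and 1.04 to 1.11 in CTCF-B KO. Removing the GC and length trend, CTCF-A KO minus WT was -0.41 for ETV1 and -1.11 for ETV4, and CTCF-A KO minus CTCF-B KO was -1.47 and -1.63; with CTCF-A KO replicate 4 alone the first pair was -0.45 and -0.999 and ETV1 between the knockouts -1.49. With library medians aligned, CTCF-A KO minus WT was -0.83 for ETV4 and -0.24 for ETV5, and ETV5 between the knockouts -1.33. That scaling moved the median of all genes by under 0.1 and split the genes called in CTCF-A KO as 4302 higher and 2674 lower (3540 and 3462 before), and those between the knockouts as 4171 and 2989 (3717 and 3632 before). The levels per kilobase with the trend removed or with replicate 4 alone were added after seeing the data; ETV1 in CTCF-A KO was then 37.3 or 36.2, against 27.6 as deposited.

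Of 85 list genes, 16 passed as higher in CTCF-B KO, against 28 with the trend removed, 29 with only the 2 groups in the fit and 29 with CTCF-A KO replicate 4 alone; all genes gave 2100, against 3220, 3252 and 3253. With replicate 4 alone, 26 list genes were lower in CTCF-A KO than in WT (42 in the deposited values), 26 lower than in CTCF-B KO (43), and 2252 of all genes higher than in WT. Same-numbered libraries correlated at -0.32 to 0.43 in their deviations, so the numbers were not taken as pairs; a replicate block with the trend removed gave 30 list genes and 3249 genes higher in CTCF-B KO, and the same values as the trend removal for the members.

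Signs turned for the values that follow, some of them over 0.3 from 0 before. With the trend removed, with or without the replicate block, CTCF-A KO minus CTCF-B KO became 0.068 for PHLDA1, -0.10 for EPHA2, -0.0024 for CIC, -0.048 for DDB1, -0.012 for DDA1, 0.13 for CUL4A, -0.0074 for CREBBP, -0.068 for RPS6KA4 and -0.13 for ARAF. CTCF-A KO minus WT became 0.0063 for ATXN1, 0.19 for CUL4A, 0.18 for FLI1, 0.0021 for RPS6KA3, -0.030 for PLAUR, 0.085 for EMP1 and 0.003 for TMEM106B, and CIC in CTCF-B KO 0.009. With replicate 4 alone ATXN1 was 0.065, RPS6KA3 0.13, VIM -0.12 and TMEM106B 0.023 against WT, and between the knockouts DDB1 was -0.029, TRIB2 0.0046, KAT2B 0.047, RPS6KA4 -0.029, EP300 0.24 and ARAF -0.14. Under quantile normalization EPHA2 was -0.036 and DDB1 -0.070 between the knockouts, and VIM -0.14 in CTCF-A KO. Of 210 called values of the 82 other named genes, 193 stayed called whichever library was left out, and 24 were lost or turned with the trend removed. The cause of these changes was not tested.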
